A study of Mus musculus with 6 samples.

Results

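The genes described here build the contractile and mechanical frame of the heart muscle cell. They are 36 genes of the thin filament, of titin and the thick filament, of the Z-disc, of desmin and the chaperones of the myofibril, and of the intercalated disc. They were taken by name, with the myosin chains left out, from a table of 54838 genes. All 36 had counts in each of 6 libraries and all 36 were among the 14708 genes with enough counts to be tested. By role they fall into 7 thin filament genes, 4 genes of the thick filament and M-band, 13 Z-disc genes, 4 genes of desmin and the chaperones, and 8 intercalated disc genes.

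RNA was sequenced from atrial tissue of old mice (labelled age 20.9 ± 0.43 months, kind of error not stated, both sexes used). In the labels, knockout (KO) stands for mice that lack the kinase PKC-epsilon, the product of Prkce, of the mouse line JAX stock #004189. Wild type (WT) stands for C57BL/6J mice, with 3 replicates in each group. Nothing else was given to either group according to the labels, and whether the KO mice were littermates of the WT mice is not given in the sources used here. The labels disagree on the genotype of 4 libraries. By the library name, which heads the table's columns, the KO group is KO replicates 1, 2 and 3 and the WT group is WT replicates 1, 2 and 3. By the genotype field, the KO group is KO replicate 1, WT replicate 2 and WT replicate 3, and the WT group is WT replicate 1, KO replicate 2 and KO replicate 3. Below, a library is called by its library name, and each comparison is made in both readings. KO-named and WT-named libraries are the groups by library name, and KO-field and WT-field libraries those by genotype field. The title and the mouse line go with the genotype field. JAX stock #004189 is thus the line given for the KO-field libraries, and C57BL/6J that for the WT-field ones.

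Prkce does not bear out either reading. It stood at 9.20, 5.15 and 28.6 CPM across the KO-named libraries, against 36.2, 11.7 and 30.2 CPM across the WT-named ones, where CPM are counts scaled to library size. KO replicate 3 and WT replicate 2 are at odds by library name, and KO replicate 2 and WT replicate 3 by genotype field. Each direction below is therefore a direction between labels. Total counts ran from 11574206 to 24138824 per library, and the 36 genes took 3.61% to 4.07% of them. The summed level of 4 Y-linked genes was 126, 84.1 and 78.9 CPM across the KO-named libraries, against 1.08, 1.09 and 146 CPM across the WT-named ones. Only WT replicates 1 and 2 are low, so the label by library name is partly confounded with sex, and their parts cannot be told apart. By genotype field these libraries are split between the groups. The libraries with names that start with Old are KO replicate 1 and WT replicate 1. The other 4 names start with a number.

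In the sarcomere, myosin of the thick filament pulls on actin of the thin filament, and troponin and tropomyosin switch that contact on with calcium. Titin spans from the Z-disc, where thin filaments of neighbouring sarcomeres are tied together by alpha-actinin, to the M-band. Desmin links the Z-discs to each other and to the cell border. There the intercalated disc joins cells end to end through adherens junctions, which hold actin, and desmosomes, which hold desmin. Protein kinase C isoforms are known to phosphorylate troponin I and myosin binding protein C, which acts on proteins and need not alter RNA levels.

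The start regions of 7 of the genes are shown, chosen by rank, and none of these genes passed the tests below. Flnc, Actn2, Mypn and Des are the members with the smallest p among those higher in the KO-field libraries. Vcl, Tjp1 and Dsp have the widest range over libraries among the intercalated disc genes with a window in the table. The sequences are the 250 bases before a RefSeq transcript start (GRCm38.p6), written 5′ to 3′ along the gene's strand. Capitals mark matches to 6 motifs searched on both strands: the CArG box and the MEF2 site, by their names, and the MCAT element CATTCC, the TATA box TATAAA, the GATA site AGATAA, and the E-box CAGCTG.
Flnc, chr6:29432903-29433152, plus strand: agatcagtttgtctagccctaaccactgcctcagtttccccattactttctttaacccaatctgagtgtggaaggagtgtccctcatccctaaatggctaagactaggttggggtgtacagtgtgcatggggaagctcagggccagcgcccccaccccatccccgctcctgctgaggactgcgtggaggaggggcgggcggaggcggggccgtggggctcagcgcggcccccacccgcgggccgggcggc
Actn2, chr13:12340733-12340982, minus strand: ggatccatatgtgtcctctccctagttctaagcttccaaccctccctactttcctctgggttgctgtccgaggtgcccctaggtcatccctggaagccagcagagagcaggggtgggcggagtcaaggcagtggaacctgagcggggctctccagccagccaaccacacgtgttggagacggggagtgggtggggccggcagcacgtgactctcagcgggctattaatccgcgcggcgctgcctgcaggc
Mypn, chr10:63203953-63204202, minus strand: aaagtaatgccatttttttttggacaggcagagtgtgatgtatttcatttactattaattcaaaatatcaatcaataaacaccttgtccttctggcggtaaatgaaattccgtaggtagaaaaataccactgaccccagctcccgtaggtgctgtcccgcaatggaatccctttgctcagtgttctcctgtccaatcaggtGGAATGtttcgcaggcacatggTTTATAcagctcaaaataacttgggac
Des, chr1:75360042-75360291, plus strand: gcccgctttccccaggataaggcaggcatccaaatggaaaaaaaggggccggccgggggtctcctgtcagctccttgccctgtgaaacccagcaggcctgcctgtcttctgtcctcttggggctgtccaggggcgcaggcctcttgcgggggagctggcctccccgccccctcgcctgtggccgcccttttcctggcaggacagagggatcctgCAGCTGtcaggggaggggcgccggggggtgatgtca
Vcl, chr14:20929148-20929397, plus strand: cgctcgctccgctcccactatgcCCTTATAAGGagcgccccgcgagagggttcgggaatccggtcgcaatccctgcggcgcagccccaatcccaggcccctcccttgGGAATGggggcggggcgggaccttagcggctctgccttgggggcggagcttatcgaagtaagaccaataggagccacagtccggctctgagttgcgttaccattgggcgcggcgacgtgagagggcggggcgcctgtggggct
Tjp1, chr7:65371245-65371494, minus strand: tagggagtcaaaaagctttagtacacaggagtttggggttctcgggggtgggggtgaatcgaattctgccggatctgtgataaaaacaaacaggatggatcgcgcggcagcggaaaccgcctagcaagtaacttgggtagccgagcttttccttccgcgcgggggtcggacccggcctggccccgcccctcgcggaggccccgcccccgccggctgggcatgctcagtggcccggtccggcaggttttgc
Dsp, chr13:38151044-38151293, plus strand: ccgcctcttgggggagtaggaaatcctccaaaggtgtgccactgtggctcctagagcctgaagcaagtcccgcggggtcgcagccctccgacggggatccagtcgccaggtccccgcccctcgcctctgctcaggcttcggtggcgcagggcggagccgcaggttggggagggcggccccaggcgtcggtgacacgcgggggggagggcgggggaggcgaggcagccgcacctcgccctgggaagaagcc
The windows of Actn2, Tjp1 and Dsp hold none of the 6 motifs. In Mypn, the capitals are an MCAT match whose first base lies 49 bases before the start and a TATAAA match 27 bases before it. Des has an E-box 36 bases before the start. Vcl has a CArG box 227 bases before the start and an MCAT match 143 bases before it. These matches do not overlap each other. The Flnc match to CATTCC begins 1 base before the start and reaches past the printed bases, so it is not in capitals. Flnc has 2 windows in the table, of which 1 is printed.

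Over windows of 300 bases, from 250 before to 50 after the start, 27 of the 36 genes matched by symbol to at least 1 window in the RefSeq table, 38 windows in all. The other members are Tcap, Dsg2, Myom2, Myot, Pkp2, Cryab, Nexn, Neb and Cdh2. A CArG box was in 4 of the 38 (10.5%), belonging to Ldb3, Nebl and Vcl, and in 1.63% of all 32851 windows. A MEF2 site was in 6 (15.8%), belonging to Ttn, Mybpc3, Myoz2, Synpo2l and Synpo2, and in 3.19% of all windows. CATTCC was in 10 (26.3%, all windows 14.7%), CAGCTG in 11 (28.9%, all windows 16.3%), TATAAA in 5 (13.2%, all windows 13.6%) and AGATAA in 4 (10.5%, all windows 11.2%). Windows of 1 gene can overlap, and these are matches of letters, with no test.

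Levels of different genes are compared per kilobase of annotated exon, counting the exons of all transcripts in GENCODE M21, and are means ± SD over 6 libraries. They are rough, since exons of minor transcripts lengthen a gene without adding reads.

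Within the thin filament, Tnni3, which encodes the inhibitory subunit of cardiac troponin (ENSMUSG00000035458, chromosome 7 at 4518305 to 4524229), was the highest member of all 36, at 1962 ± 142 CPM per kb. Tpm1, alpha-tropomyosin, followed at 1214 ± 127 and Tnnt2, cardiac troponin T, at 904 ± 48.1 CPM per kb. Lmod2, the leiomodin that lengthens thin filaments, stood at 263 ± 68.1 and Tpm2, beta-tropomyosin, at 78.0 ± 10.1. At the low end were Tnni1, the slow skeletal troponin I of the fetal heart, at 0.894 ± 0.223 and Neb, the thin filament ruler of skeletal muscle, at 0.607 ± 0.139 CPM per kb. Tnni1 had only 43 to 70 counts per library. Per exon length, Tpm1 and Tnnt2 differed beyond their SD, which holds no error of the length, whereas the ranges of Tnni1 and Neb overlapped. The order of the highest genes depends on the annotated exon lengths, 2063 bases for Tnni3, 6485 for Tpm1 and 7752 for Tnnt2. In CPM without length, Tpm1 and Tnnt2 lay above Tnni3.

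Tnni3 was at 4097, 3780.1 and 4233 CPM across the KO-named libraries, against 3604, 4356 and 4211 CPM across the WT-named ones. The groups overlap, and WT replicate 1 is the lowest library. Tnnt2 had 7091, 6405 and 6992 CPM across the KO-named libraries, against 6805, 7413 and 7351 CPM across the WT-named ones. Its highest library was only 1.16 times its lowest, the narrowest range among the 36 genes.

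Tpm1 reached 8989, 8734 and 7791 CPM across the KO-named libraries, against 6888, 7357 and 7482 CPM across the WT-named ones. All KO-named libraries lie above all WT-named ones, and Tpm1 is the only member of the 36 whose groups do not overlap by library name. Tpm2 had 239, 198 and 222 CPM across the KO-named libraries, against 199.7, 278 and 226 CPM across the WT-named ones. The ratio of Tpm2 to Tpm1 per length was 5.94, 5.05 and 6.36% across the KO-named libraries, against 6.46, 8.41 and 6.72% across the WT-named ones, so the lowest ratio is in KO replicate 2 and the highest in WT replicate 2. The ratio of Tnni1 to Tnni3 per length was 0.0556, 0.0616 and 0.0331% across the KO-named libraries, against 0.0486, 0.0476 and 0.0292% across the WT-named ones.

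Among the thick filament genes, Mybphl, a myosin binding protein of the atria and conduction system, was above Mybpc3, the cardiac myosin binding protein C, with 668 ± 65.1 against 414 ± 52.0 CPM per kb. The ratio of Mybphl to Mybpc3 per length was 148, 154 and 179% across the KO-named libraries, against 179, 142 and 174% across the WT-named ones, above 100% in each library. Mybphl itself had 947, 796 and 829 CPM across the KO-named libraries, against 832, 754 and 960.1 CPM across the WT-named ones. Mybpc3 had 2093, 1689 and 1508 CPM across the KO-named libraries, against 1513, 1739 and 1799.6 CPM across the WT-named ones. Both were highest or next to highest in KO replicate 1. Myom2, an M-band protein, stood at 156 ± 12.9 CPM per kb and Ttn, the giant spring of the sarcomere, at 21.8 ± 2.56. Only 62.3% of the exon bases of Ttn are free of another annotated gene (Gm13938), and its level was 35.0 CPM per kb of those free bases.

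The Z-disc genes spanned from Tcap, telethonin, which caps the end of titin, at 1398 ± 450.0 CPM per kb down to Myot, myotilin, at 1.76 ± 0.378. Actn2, the alpha-actinin that crosslinks thin filaments, was next at 416 ± 69.4. Myoz2, a calcineurin-binding Z-disc protein, had 276 ± 33.1, Ldb3, an alpha-actinin partner that also binds protein kinase C, 142 ± 10.6, and Nexn, nexilin, 126 ± 16.3 CPM per kb. Synpo2l and Synpo2, related actin-binding proteins, had 75.6 ± 11.3 and 12.5 ± 1.36. The PDZ and LIM proteins Pdlim5, which binds protein kinase C, and Pdlim3 had 52.8 ± 7.33 and 20.0 ± 5.06. Flnc, the muscle filamin, stood at 31.4 ± 8.02, Mypn, myopalladin, at 17.8 ± 2.76 and Nebl, the cardiac relative of nebulin, at 17.4 ± 3.94 CPM per kb. Pdlim3, Mypn and Nebl follow each other in level and do not differ beyond their SD.

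Neb had 20.7, 9.57 and 17.5 CPM across the KO-named libraries, against 17.6, 15.9 and 15.5 CPM across the WT-named ones, and its lowest library was KO replicate 2. The ratio of Neb to Nebl per length was 4.67, 2.32 and 3.95% across the KO-named libraries, against 2.71, 4.76 and 3.19% across the WT-named ones, lowest in KO replicate 2. Synpo2 had 171, 166 and 154 CPM across the KO-named libraries, against 194, 157 and 142 CPM across the WT-named ones, and Synpo2l 334, 407 and 303 CPM across the KO-named libraries, against 281, 372 and 402 CPM across the WT-named ones. The ratio of Synpo2 to Synpo2l per length was 18.1, 14.4 and 18.0% across the KO-named libraries, against 24.4, 14.9 and 12.5% across the WT-named ones, highest in WT replicate 1, where Synpo2 was highest and Synpo2l lowest.

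Desmin and the chaperones were led by Cryab, the small heat shock protein alpha-B-crystallin that protects desmin, at 1391 ± 219.7 CPM per kb, with Des at 351 ± 61.2, the myofibril methyltransferase Smyd1 at 87.7 ± 6.27 and the myosin chaperone Unc45b at 23.3 ± 7.91. Cryab had 1844, 1973 and 2032 CPM across the KO-named libraries, against 1625, 2442 and 2432 CPM across the WT-named ones. Its lowest library was WT replicate 1, as for Des.

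The intercalated disc genes ran from Dsp, desmoplakin, which ties desmin to the desmosome, at 41.2 ± 12.4 CPM per kb to Dsg2, the desmosomal cadherin desmoglein 2, at 2.07 ± 0.915. Pkp2, plakophilin 2, had 21.5 ± 2.99, Jup, plakoglobin, 20.0 ± 2.34, and Tjp1, the scaffold ZO-1, 10.6 ± 3.45. Cdh2, N-cadherin of the adherens junction, had 10.0 ± 3.36, Ctnna3, alpha-T-catenin, 4.91 ± 1.25 and Vcl, vinculin, 3.12 ± 1.40 CPM per kb. Of the exon bases, 74.5% of Vcl and 57.2% of Dsg2 are free of other genes, so reads in the rest may be missing from the counts. Pkp2 had 98.8, 127 and 123 CPM across the KO-named libraries, against 96.0, 112 and 136 CPM across the WT-named ones.

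**Figure D1:**
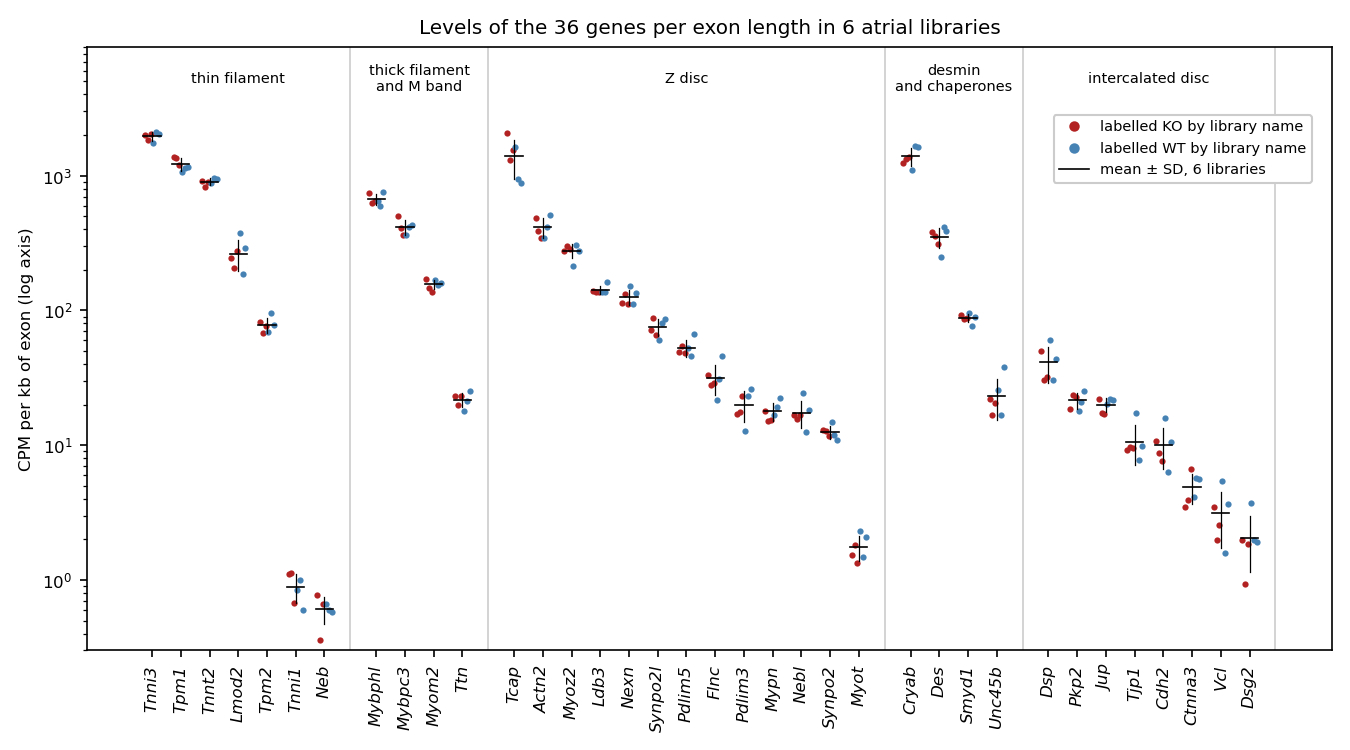
Level of each of the 36 genes in CPM per kb of exon on a log axis, grouped by role, with 1 point per library (red, labelled KO by library name; blue, labelled WT) and black lines for the mean ± SD of 6 libraries. Troponin I (Tnni3) leads at 1962 ± 142 and nebulin (Neb) is lowest at 0.607 ± 0.139.

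For each gene, the highest library was 1.16 to 4.03 times the lowest, with a median of 1.48 over the 36 genes. The 8 intercalated disc genes had a median of 2.11 and the other 28 a median of 1.45. Over the 11459 tested genes with a mean level at or above that of the lowest member (3.22 CPM), the median was 1.53.

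WT replicate 1 was the highest library for 11 of the 36 genes and the lowest for 10, WT replicate 3 the highest for 10 and the lowest for 3, and WT replicate 2 the highest for 6 and the lowest for 10. Of the KO-named libraries none was the highest for more than 6 or the lowest for more than 7. Of the 8 intercalated disc genes, WT replicate 1 was the highest for 5 (Vcl, Cdh2, Dsp, Dsg2 and Tjp1) and the lowest for 1 (Pkp2). In contrast, WT replicate 2 was the lowest for 4 of the 8 (Vcl, Cdh2, Dsp and Tjp1) and the highest for none. Beyond the disc, WT replicate 1 was lowest for 9 of 28 genes, among them Des, Flnc, Pdlim3, Myoz2 and Cryab, and highest for 6, Lmod2, Nebl, Nexn, Myot, Synpo2 and Smyd1.

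The remaining members are given by their lowest and highest library. Ttn ran over 2103 to 2927 CPM, Myom2 over 1218 to 1516, Ldb3 over 831 to 999, Myoz2 over 729.6 to 1046 and Nexn over 427 to 578 CPM. Pdlim5 ran over 406 to 589.5 CPM, Pdlim3 over 65.5 to 135, Smyd1 over 349 to 432 and Myot over 2.94 to 5.10 CPM. Pdlim3 is the widest of these 9, at 2.06 times, and Ldb3 the narrowest.

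Vcl, which couples cadherins to actin (ENSMUSG00000021823, chromosome 14 at 20929398 to 21033676), had 28.7, 16.3 and 20.9 CPM across the KO-named libraries, against 44.7, 13.0 and 29.9 CPM across the WT-named ones. The highest level was 3.42 times the lowest, and both extremes are WT-named, while by genotype field the lowest, WT replicate 2, is KO. Cdh2 had 86.7, 70.8 and 61.8 CPM across the KO-named libraries, against 128, 51.0 and 85.5 CPM across the WT-named ones. Its highest library, WT replicate 1, was 2.52 times its lowest, WT replicate 2.

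Dsp (ENSMUSG00000054889, chromosome 13 at 38151294 to 38198577) had 483, 296 and 311 CPM across the KO-named libraries, against 586, 296 and 419 CPM across the WT-named ones. WT replicate 1 and KO replicate 1, the libraries with names that start with Old, are its highest. Jup, which lies between desmoplakin and the desmosomal cadherins, varied less, with 142, 111 and 109.6 CPM across the KO-named libraries, against 130.4, 141 and 139 CPM across the WT-named ones. Ctnna3 had a different order, with 25.0, 28.3 and 48.1 CPM across the KO-named libraries, against 30.0, 41.2 and 40.5 CPM across the WT-named ones, and KO replicate 3 was its highest library.

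**Figure D2:**
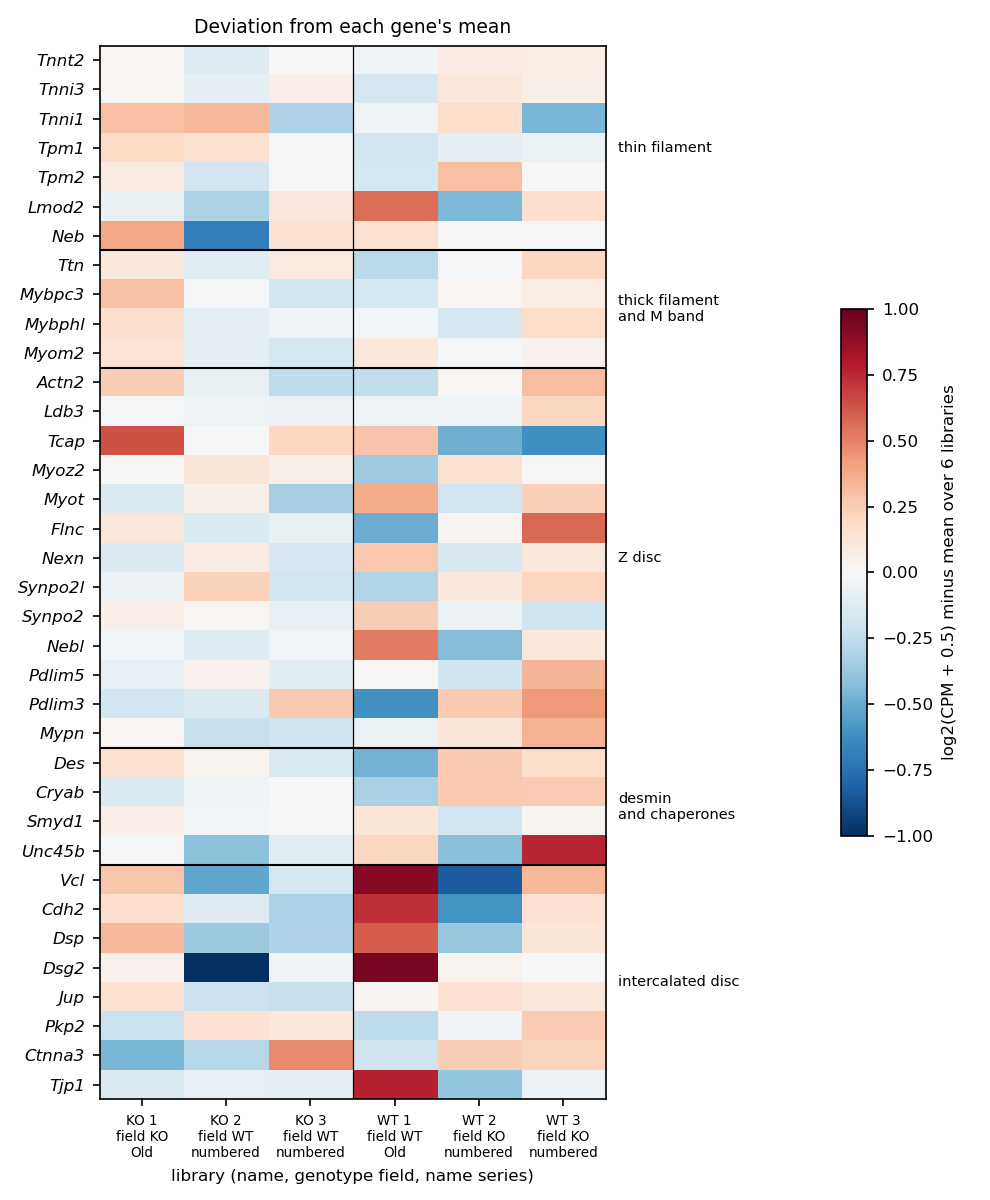
Deviation of each gene in each library from the gene's mean over 6 libraries, in log2(CPM + 0.5), red above and blue below, with genes down the page by role and the libraries labelled KO left of those labelled WT. The deep red cells of WT replicate 1 are Vcl, Cdh2, Dsp, Dsg2 and Tjp1, at 0.61 to 0.95, and in the same library Pdlim3 and Flnc are at -0.61 and -0.50.

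By library name, the question was whether the frame genes differ between atria labelled KO and WT. None of the 36 passed edgeR's quasi-likelihood test at an adjusted p under 0.05, where 0% of the 14708 genes tested passed. At an unadjusted p under 0.05, edgeR had 0 members, beside 1.49% of all genes, while DESeq2 had 2, beside 1.52%, and limma-voom 1, beside 1.6%. Neither DESeq2 nor limma-voom called a member. The median log2 fold change of the 36 was -0.09, with 9 higher and 27 lower in KO, beside a median of -0.02 over all genes tested, of which 45.5% were higher. Without WT replicate 3, 17 of the 36 were higher. Without KO replicate 3 and WT replicate 2, the libraries at odds with Prkce, the members' median was -0.09 and again 0 passed.

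Split by role, the values higher in the KO-named libraries were 2 of 7 in the thin filament (median log2 fold change -0.03), 3 of 4 in the thick filament and M-band (0.03), 2 of 13 at the Z-disc (-0.10), 1 of 4 among desmin and the chaperones (-0.08) and 1 of 8 at the intercalated disc (-0.26). Tpm1 alone had groups that do not overlap, 1 of 36 (2.78%), with KO above, beside 3.33% of all genes in that direction. No member lay wholly below, beside 2.62% of all genes, and 5.95% of all genes parted in either direction.

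Tcap (ENSMUSG00000007877, chromosome 11 at 98383811 to 98384953) had the smallest p, with 1969, 1247 and 1461 CPM across the KO-named libraries, against 1541, 902 and 830.0 CPM across the WT-named ones. The WT library that reaches into the KO range is WT replicate 1. The means were 1559 ± 371 CPM in the KO-named libraries and 1091 ± 392 CPM in the WT-named ones (SD, n = 3 each), giving a log2 fold change at 0.51 ± 0.25 (SE, adjusted p = 0.99993 in edgeR). KO was higher in 3 of 3 pairs of the same replicate number, a pairing that the labels do not state and this fit did not use. Leaving out WT replicate 1 gave 0.85, leaving out KO replicate 1 gave 0.32, and leaving out both KO replicate 3 and WT replicate 2 gave 0.44. The difference was 0.35 in the pair of libraries named Old and 0.64 among the numbered libraries, both as log2 CPM.

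Tpm1, whose values are given above, had a fitted log2 ratio of 0.23 ± 0.14 (SE, adjusted p = 0.99993 in edgeR). Tnni1 had 3.98, 4.06 and 2.45 CPM across the KO-named libraries, against 3.06, 3.62 and 2.15 CPM across the WT-named ones, which overlap. The fitted log2 ratio was 0.26 ± 0.35 (SE, adjusted p = 0.99993 in edgeR), and 0.63 without KO replicate 3 and WT replicate 2. Leaving out any library but WT replicate 1 moved it by more than 1.5 times, to between 0.07 without WT replicate 3 and 0.46 without KO replicate 3.

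On the other side, Dsg2 (ENSMUSG00000044393, chromosome 18 at 20558074 to 20604521) had 16.4, 7.69 and 15.4 CPM across the KO-named libraries, against 30.9, 16.2 and 15.9 CPM across the WT-named ones. The lowest library is KO replicate 2 and the highest WT replicate 1, and the other 4 lie between 15.4 and 16.4 CPM. The fitted log2 ratio was -0.67 ± 0.33 (SE, adjusted p = 0.99993 in edgeR). Leaving out WT replicate 1 gave -0.28, and leaving out KO replicate 2 gave -0.40.

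Mypn had 104, 88.0 and 89.4 CPM across the KO-named libraries, against 97.7, 112 and 131 CPM across the WT-named ones, giving a log2 fold change at -0.28 ± 0.16 (SE, adjusted p = 0.99993 in edgeR), which was -0.16 without WT replicate 3. Unc45b had 98.9, 75.4 and 92.7 CPM across the KO-named libraries, against 116, 74.9 and 170.1 CPM across the WT-named ones. WT replicate 3 stands highest, and the log2 ratio at -0.44 ± 0.26 (SE, adjusted p = 0.99993 in edgeR) was -0.10 without it. Leaving out WT replicate 2 gave -0.68, and leaving out both KO replicate 3 and WT replicate 2 gave -0.71. In Unc45b, 60.3% of the exon bases are free of the overlapping genes Slfn5os and Unc45bos.

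By genotype field, more of the frame genes were higher in the KO-field libraries, though none passed the test. In edgeR 0 of the 36 passed at an adjusted p under 0.05, beside 0.0136% of all genes tested (2 of 14708, and 51 with the replicate number as a block, which still held 0 of the 36). At an unadjusted p under 0.05 there were 4 members (Flnc, Actn2, Mypn and Des) in edgeR, beside 5.69% of all genes. DESeq2 had 4, beside 5.41%, and limma-voom 4, beside 5.47%. After adjustment DESeq2 called 0 of the 34 members it gave an adjusted p, beside 0.184% of all genes, and limma-voom 0 of 36, beside 0.0068%.

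The median log2 fold change was 0.11, with 24 of 36 genes higher in the KO-field libraries, beside -0.01 over all genes tested, of which 48.1% were higher. Without KO replicate 2 and WT replicate 3, the libraries at odds with Prkce in this reading, the median was 0.04, with 20 of 36 higher. By role, the higher genes were 6 of 7 in the thin filament (median 0.11), 4 of 4 in the thick filament and M-band (0.15), 8 of 13 at the Z-disc (0.10), 3 of 4 among desmin and the chaperones (0.27) and 3 of 8 at the intercalated disc (-0.08).

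In 8 of the 36 genes (22.2%) all KO-field libraries lay above all WT-field ones, beside 7.48% of all genes tested. These were Tnnt2, Tpm2, Mybpc3, Actn2, Flnc, Mypn, Des and Jup. None lay wholly below, beside 4.49% of all genes, and 12% of all genes parted in either direction. The 36 genes are not independent of each other, so the share is a description. In bulk tissue, fewer cells of a type and less RNA per cell cannot be told apart.

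Flnc, which binds actin at the Z-disc and the cell border (ENSMUSG00000068699, chromosome 6 at 29433256 to 29461883), had 312, 293 and 430.0 CPM across the KO-field libraries, against 204, 261 and 274 CPM across the WT-field ones. WT replicate 3 is the highest and WT replicate 1 the lowest. The means were 345 ± 74.2 CPM in the KO-field libraries and 246 ± 37.3 CPM in the WT-field ones (SD, n = 3 each). Flnc was higher in 3 of 3 pairs of the same replicate number. Any pairing gives this, since all KO-field libraries lie above all WT-field ones, and the fit used no pairs. The log2 fold change was 0.49 ± 0.18 (SE, adjusted p = 0.842 in edgeR). Without WT replicate 3 it was 0.30, and without KO replicate 2 and WT replicate 3 0.33. Within series the difference in log2 CPM was 0.61 for the pair named Old and 0.41 for the numbered libraries.

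Actn2 (ENSMUSG00000052374, chromosome 13 at 12269426 to 12340760) had 1851, 1581 and 1928 CPM across the KO-field libraries, against 1317, 1482 and 1307 CPM across the WT-field ones. The gap between the groups is between 1581 CPM in WT replicate 2 and 1482 CPM in KO replicate 2. The means were 1786 ± 182 CPM in the KO-field libraries and 1369 ± 98.2 CPM in the WT-field ones, giving a log2 fold change at 0.38 ± 0.15 (SE, adjusted p = 0.868 in edgeR). It was 0.38 without KO replicate 2 and WT replicate 3.

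Mypn, which binds alpha-actinin and nebulette (ENSMUSG00000020067, chromosome 10 at 63115795 to 63203952), had 104, 112 and 131 CPM across the KO-field libraries, against 97.7, 88.0 and 89.4 CPM across the WT-field ones, giving a log2 fold change at 0.33 ± 0.14 (SE, adjusted p = 0.868 in edgeR). Without KO replicate 2 and WT replicate 3 it was 0.19. Des (ENSMUSG00000026208, chromosome 1 at 75360329 to 75368579) had 1444, 1556 and 1464 CPM across the KO-field libraries, against 933, 1330.3 and 1170.4 CPM across the WT-field ones. WT replicate 1 is below the other 5 libraries. Its log2 ratio at 0.38 ± 0.16 (SE, adjusted p = 0.868 in edgeR) is given after its value was seen.

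Tjp1 led the genes on the other side, with 72.1, 60.8 and 76.6 CPM across the KO-field libraries, against 136, 75.2 and 74.5 CPM across the WT-field ones. All but WT replicate 1 lie between 60.8 and 76.6 CPM. Its log2 ratio at -0.45 ± 0.23 (SE, adjusted p = 0.904 in edgeR) was -0.11 without that library.

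Nebl had 254, 191 and 278 CPM across the KO-field libraries, against 372, 237 and 254 CPM across the WT-field ones, giving a log2 fold change at -0.25 ± 0.20 (SE, adjusted p = 0.909 in edgeR). Lmod2 had 482, 370.1 and 570.3 CPM across the KO-field libraries, against 744, 406 and 547 CPM across the WT-field ones, giving a log2 fold change at -0.26 ± 0.23 (SE, adjusted p = 0.918 in edgeR). Without WT replicate 1 these became -0.03 for Nebl and -0.02 for Lmod2. Without WT replicate 2 they were -0.12 for Nebl and -0.11 for Lmod2, and without KO replicate 2 and WT replicate 3 they were -0.50 and -0.61. Lmod2 was also -0.45 without KO replicate 2 and -0.41 without WT replicate 3.

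**Figure D3:**
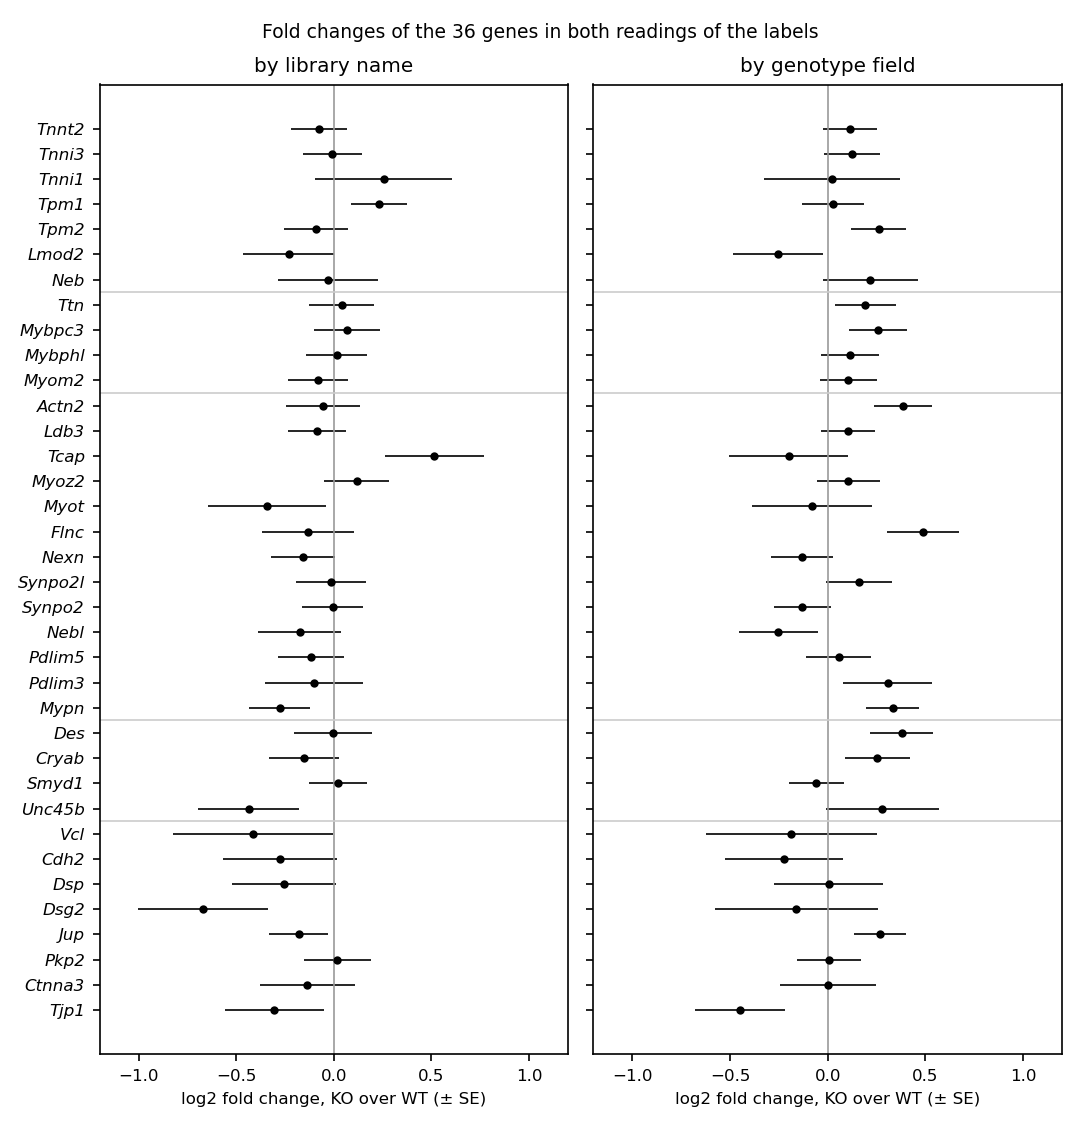
Log2 fold change, KO over WT, of each of the 36 genes with its SE in edgeR, by library name on the left and by genotype field on the right, with genes down the page by role. By library name 27 of 36 points lie below 0, and by genotype field 24 of 36 lie above it.

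The readings share 1 pair of libraries and swap the labels of the other 4. In the pair named Old, KO replicate 1 over WT replicate 1, 22 of 36 genes were higher, with a median log2 difference of 0.07. Among the numbered libraries 11 of 36 were higher in those labelled KO by name, with a median of -0.14. By genotype field these 4 libraries give 25 of 36 higher and 0.14, which is the same difference with the sign turned.

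**Figure D4:**
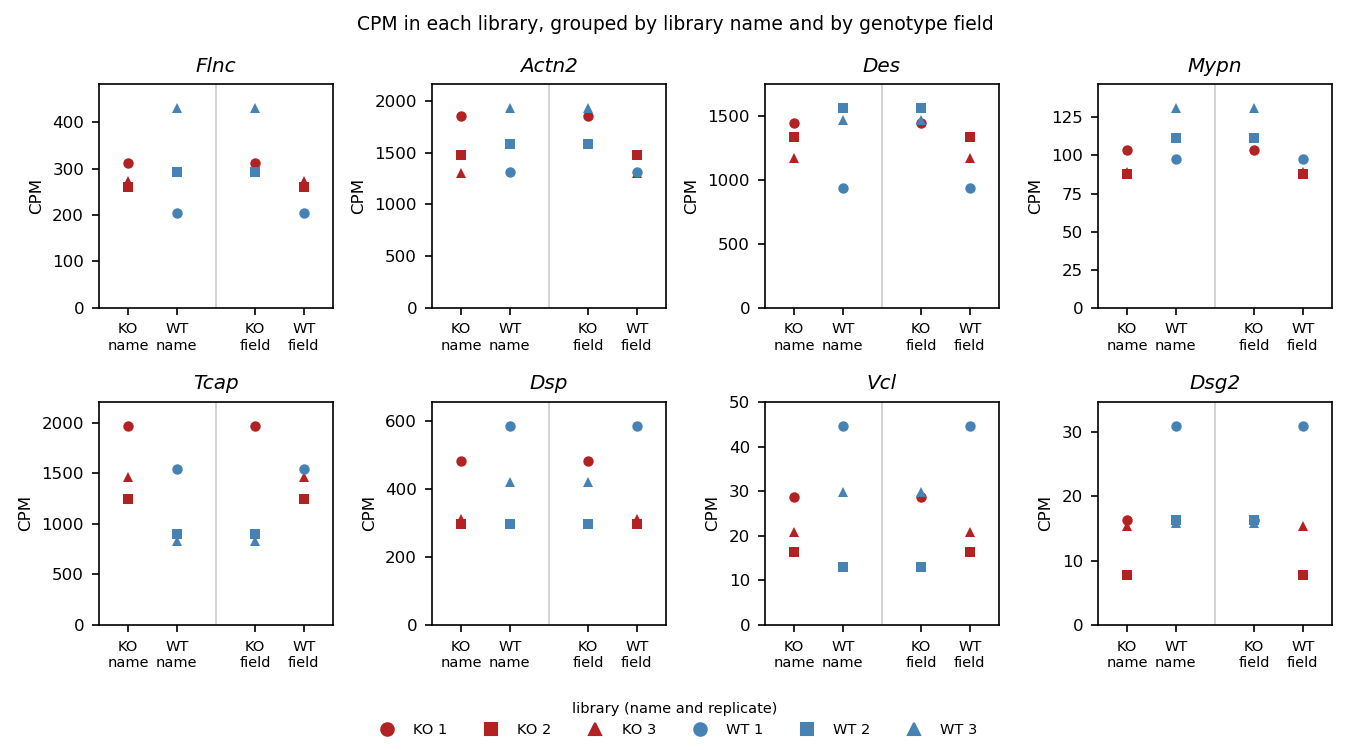
CPM of 8 genes in each library, grouped on the left of each panel by library name and on the right by genotype field, KO left of WT, with colour for the library name and marker shape for the replicate. Flnc, Actn2, Des and Mypn part by genotype field and not by library name, Tcap overlaps by library name through WT replicate 1, and Dsp, Vcl and Dsg2 are highest in WT replicate 1.

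Levels of cell type markers are given next, and a link between them and the members was not tested. Of 8 ventricular muscle genes, Gpr22 was at 0 in all libraries and 6 were tested. The list's summed level was 712, 849 and 599 CPM across the KO-field libraries, against 461, 289.9 and 519 CPM across the WT-field ones. These sums do not overlap, and they part through Myl2: without it they were 461, 492 and 425 CPM across the KO-field libraries, against 429, 264 and 486 CPM across the WT-field ones, which overlap. Of the 6 tested, 4 were higher and 2 lower in the KO-field libraries. For 3 of the 6 (50%: Myl2, Myl3 and Kcnip2) the groups did not overlap, with KO above, beside 7.48% of all genes in that direction. In edgeR 1 of the 6 passed the test by genotype field, beside 0.0136% of all genes tested. Myl2, the ventricular myosin light chain, had 251, 357 and 174 CPM across the KO-field libraries, against 32.6, 25.7 and 33.4 CPM across the WT-field ones. Myh7, the slow myosin heavy chain, averaged 136 ± 15.8 CPM in the KO-field libraries and 168 ± 117 CPM in the WT-field ones, and Xdh 81.2 ± 4.85 and 85.2 ± 18.1 CPM (SD, n = 3 each). Irx4, a ventricular transcription factor, was at 0.568, 0.926 and 0.482 CPM across the KO-field libraries and at 0 to 0.0725 CPM across the WT-field ones. The part of ventricular markers in the difference by genotype field was not tested. The 8 atrial muscle genes, all tested, summed to 36946, 31106 and 34158 CPM across the KO-field libraries, against 30989, 38602 and 31622 CPM across the WT-field ones, which overlap.

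Skeletal muscle genes, 9 in the list with Myh1 at 0 and 6 tested, summed to 22.8, 24.9 and 23.9 CPM across the KO-field libraries, against 20.2, 16.5 and 22.7 CPM across the WT-field ones. For smooth muscle and pericytes, cells that can also express Des, Flnc and Vcl, 9 of 9 genes were tested, and they summed to 939.6, 1087 and 992 CPM across the KO-field libraries, against 847, 1071 and 905 CPM across the WT-field ones. Fibroblast genes, 7 with Tcf21 at 0 and 6 tested, summed to 1959, 2290.0 and 2099.9 CPM across the KO-field libraries, against 1972, 2540.4 and 1723 CPM across the WT-field ones. These sums overlap between groups, except that those of skeletal muscle genes lie higher in the KO-field libraries by a narrow margin. Epicardial and mesothelial genes, 7 of 7 tested, summed to 156, 235 and 257 CPM across the KO-field libraries, against 206, 193 and 217 CPM across the WT-field ones. By library name the sums were 156, 193 and 217 CPM for KO, against 206, 235 and 257 CPM for WT. There 2 of 7 had an unadjusted p under 0.05 in edgeR, beside 1.49% of all genes, and 0 by genotype field. The KO-named libraries lay wholly below for 2 of 7 (28.6%), beside 2.62% of all genes. Adipocyte genes, 6 of 6 tested, summed to 483, 707 and 559 CPM across the KO-field libraries, against 510.0, 924 and 673 CPM across the WT-field ones. By library name these sums were 483, 924 and 673 CPM for KO, against 510.0, 707 and 559 CPM for WT, which overlap. KO replicate 1 had the lowest sum, with all 6 genes below their mean, and KO replicate 2 the highest, with all 6 above it. All 6 had values lower in KO by genotype field, with a median log2 fold change of -0.54. Of these, 1 (16.7%) had an unadjusted p under 0.05 in edgeR, beside 5.69% of all genes. By library name all 6 had values higher in KO, with a median of 0.53. The part of these cells in the members' values was not tested.

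Other genes of the same structures did not pass either. Of 54 further sarcomere and Z-disc genes 42 were tested, and 6 (Tnnc1, Actc1, Acta1, Ankrd23, Xirp1 and Myom1) were at 0 in all libraries. By library name 0 passed in edgeR (0 at an unadjusted p under 0.05, beside 1.49% of all genes). There 17 were higher and 25 lower, with a median log2 fold change of -0.09. By genotype field 0 passed (4 unadjusted, 9.52%, beside 5.69% of all genes), with 29 higher and 13 lower and a median of 0.11. By genotype field the groups of 8 (19.0%) did not overlap, all with KO above, beside the 7.48% of all genes in that direction. The smallest p by genotype field belonged to Pdlim7, a PDZ and LIM protein, with 54.9, 75.1 and 65.9 CPM across the KO-field libraries, against 29.8, 41.9 and 47.1 CPM across the WT-field ones, and to Obsl1, an obscurin-like protein, with 87.7, 78.5 and 90.2 CPM across the KO-field libraries, against 70.8, 44.7 and 57.9 CPM across the WT-field ones. Their log2 fold changes were 0.72 (SE 0.19, adjusted p = 0.675 in edgeR) and 0.56 (SE 0.17, adjusted p = 0.768 in edgeR). By library name they belonged to Filip1, with 37.8, 30.4 and 31.8 CPM across the KO-named libraries, against 51.3, 34.8 and 43.0 CPM across the WT-named ones, and to the chaperone Hsp90aa1, with 111, 168 and 142 CPM across the KO-named libraries, against 154, 165 and 323 CPM across the WT-named ones, at log2 fold changes of -0.37 (SE 0.18) and -0.61 (SE 0.28), each with adjusted p = 0.99993 in edgeR.

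Of 39 further genes of the intercalated disc and the costamere, which ties Z-discs to the cell membrane, 37 were tested and Synm was at 0. By library name 0 passed in edgeR (1 at an unadjusted p under 0.05, 2.70%, beside 1.49% of all genes). There 10 were higher and 27 lower, with a median of -0.08. By genotype field 0 passed (5 unadjusted, 13.5%, beside 5.69% of all genes), with 20 higher, 17 lower and a median of 0.02. The groups of 8 (21.6%) did not overlap, 7 with KO above and 1 with KO below, beside 12% of all genes in either direction. Lmna, a nuclear lamin, had 97.8, 133 and 117 CPM across the KO-field libraries, against 65.2, 85.5 and 77.2 CPM across the WT-field ones, a log2 ratio at 0.61 (SE 0.16, adjusted p = 0.675 in edgeR). Plec, plectin, which binds desmin, had 126, 148 and 132 CPM across the KO-field libraries, against 98.6, 99.6 and 97.1 CPM across the WT-field ones, a log2 ratio at 0.46 (SE 0.13, adjusted p = 0.748 in edgeR). By library name the smallest p belonged to Cxadr, a junction receptor at low level, with 0.398, 0.508 and 0.489 CPM across the KO-named libraries, against 0.900, 1.26 and 1.23 CPM across the WT-named ones, and to the connexin Gja5, with 2.73, 2.97 and 4.41 CPM across the KO-named libraries, against 1.02, 2.61 and 2.67 CPM across the WT-named ones. Only 16.0% of the exon bases of Cxadr and 4.93% of those of Gja5 are free of other genes, and their values rest on 7 to 28 and 17 to 90 counts per library. Their log2 fold changes were -1.27 (SE 0.50) and 0.69 (SE 0.42), each with adjusted p = 0.99993 in edgeR.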

How the data were processed

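Atrial RNA of 6 mice was sequenced from TruSeq v2 libraries, made without strand marking. The table deposited by the authors holds raw read counts per Ensembl gene. The submitters' processing notes name HISAT2 2.1.0, featureCounts 1.5.0-p3, FastQC 0.11.5 and MultiQC 1.7, and the build GRCm38. For the annotation release, the feature type and the setting for strand, nothing is given in the sources used here. Of the listed genes at 0 in all libraries, Tnnc1, Actc1, Acta1, Xirp1, Myom1, Synm, Gpr22 and Tcf21 have 0% of their exon bases free of other genes, Ankrd23 has 0.185% and Myh1 has 45.0%. Reads in overlaps may be missing from the counts, and no level is drawn from such a 0.

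Symbols were found for 54723 of 54838 identifiers. Positions, exon lengths and overlaps came from GENCODE M21 (GRCm38). Differences were tested on the whole table with edgeR 4.0.16 in R 4.3.3: TMM scaling, filterByExpr, a robust quasi-likelihood fit, a two-sided F test and Benjamini-Hochberg adjustment over 14708 genes, with a threshold of 0.05. The SE was derived from the fold change and its F statistic. CPM are counts over TMM-scaled library sizes. DESeq2 1.42.0, limma-voom (limma 3.58.1), RLE factors, no low-count filter, the replicate number as a block, 2 covariates (the library series, the Y-linked level), removal of the 12 genes above 1% of counts, the numbered libraries alone, and leaving out libraries served as alternatives. The fitting code was tested on simulated data. The labels name biological replicates without saying more on litters or days. The p-values weigh a difference between labels against the spread between libraries of the same label. Intervals on single counts are not printed; depth per library is given with the results.

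The replicate numbers of the titles were used as pairs only in the replicate block and in counts of pairs, and the main fits were unpaired. Deviations from the group means correlated in each such pair, at 0.158, 0.156 and 0.121 by library name and 0.247, 0.213 and 0.120 by genotype field for replicates 1, 2 and 3. Libraries with different numbers correlated at -0.169 to 0.0158 by library name and at -0.271 to 0.131 by genotype field, where WT replicate 2 with KO replicate 3 lay above the replicate 3 pair. Deviations cancel within each group, so positive values with some libraries force negative values with others. These correlations therefore cannot decide whether the libraries are paired, and the labels do not state this pairing.

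The members and lists were chosen with earlier results of these data known. Fold changes are given for the 3 members with the smallest p in each direction and reading, and values in every library for these, for the 2 highest per length in each role and for 5 paralog pairs. Of each list of other genes, the 2 with the smallest p in each reading are named. Further values, among them those of Tnnt2, Vcl, Cdh2, Jup, Ctnna3, Myl2, Myh7 and Xdh, the test of Des, and the marker sum without Myl2, were chosen after they were seen.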

Additional observations from a re-analysis of the deposited data

How the results depend on the processing

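No member passed the test in either reading under any of the 16 alternatives. The 12 member fold changes chosen by the smallest p kept their direction under all 16. The alternatives refit the same or fewer of the libraries that chose these genes, so this does not test their direction. Lmod2 by genotype field came to -0.02 without WT replicate 1. By library name the median log2 fold change of the members, -0.09, was -0.17 with the Y-linked level as covariate, and -0.10 to -0.05 leaving out 1 library. By genotype field, where it was 0.11, it ran over 0.06 to 0.11 leaving out 1 library and 0.04 to 0.13 under the others. Over all genes by library name 0 passed, against 1 with no low-count filter, 3 in the numbered libraries alone, 6 without the libraries at odds with Prkce, and 0 to 4 leaving out 1 library (2 without WT replicate 1 and 4 without WT replicate 3). By genotype field 2 passed, against 27 in DESeq2, 1 in limma-voom, 25 with no low-count filter, 7 with the library series as covariate, 51 with the replicate block, and 0 to 2 leaving out 1 library. The replicate block changed no other call. The smallest adjusted p of any member was 0.556 by library name (Tcap, without WT replicate 1) and 0.218 by genotype field (Flnc, replicate block). With the Y-linked level as covariate, Tcap was at 0.83, Tnni1 at 0.61, Dsg2 at -0.34, Mypn at -0.46 and Unc45b at -0.86 by library name. Of the WT-named libraries only WT replicate 3 has a high Y-linked level. That fit therefore sets the KO-named libraries mainly against WT replicate 3, also for the median of -0.17. WT replicate 3 was the lowest library for Tcap and Tnni1 and the highest for Mypn and Unc45b. Levels over exon bases free of other genes put 5 members at another rank, by at most 2 places. Depth limits Tnni1, Myot and Neb, with 39 to 365 counts per library. Dsg2 and Vcl also had few counts in their lowest libraries, 106 in KO replicate 2 and 155 in WT replicate 2. The cause of these shifts was not tested.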
